A study of Mus musculus with 87 samples.

Results

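The 5′ ends of the mouse Hox clusters hold the posterior Hox genes, and 9 of them, from paralog groups 11 to 13, were followed through all 13 deposited comparisons of a study of the Polycomb protein Suz12. They were Hoxa11, Hoxc11 and Hoxd11 of group 11, Hoxc12 and Hoxd12 of group 12, and Hoxa13, Hoxb13, Hoxc13 and Hoxd13 of group 13. They were taken by gene symbol out of 26171 symbols in each table, and the list was chosen with earlier results of these data known. All 9 were found in every table. Hox genes encode homeodomain transcription factors that give segments of the body axis their identity. They sit in 4 clusters, and the order of the genes along a cluster follows the order in which they are expressed along the body, so that group 13 marks the tail end, the distal limb and the urogenital and hindgut region. In embryonic stem cells the clusters are covered by H3K27me3, the histone mark written by the Polycomb repressive complex PRC2, and are nearly silent. Retinoic acid, used to make neuronal precursors, is known to switch on mainly the anterior genes of the clusters.

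Suz12 is a PRC2 subunit whose exon 4 is alternatively spliced, which gives a long isoform that holds the exon and a short isoform that lacks it. RNA was sequenced from the 129-B13 mouse embryonic stem cell line (ESC) grown with LIF in 20% serum and from neuronal precursors (NP) derived from it, which received retinoic acid on day 4 and were collected on day 8. ESC were wild type (WT, 3 libraries), carried a Suz12 that always includes exon 4 (CSex4, 2), lacked exon 4 (Deltaex4, 2), or were a full Suz12 knock-out (KO, 3). In further ESC the knock-out was rescued with the long (KO-L, 2) or the short isoform (KO-S, 2), or with constructs, placed in the Rosa26 locus, in which the long or the short isoform carried the 3D mutation at position 196 (KO-L3D and KO-S3D, 2 each). NP were made from WT (4 libraries), from the knock-out and its KO-L and KO-S rescues, and from CSex4 and Deltaex4 (2 libraries each). All 4 rescue groups therefore share the knock-out background. The labels do not say how many clones stand behind a group or whether replicates came from separate cultures, so p-values measure the spread between these libraries, which may be technical.

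The bases just before the annotated start are shown for 3 members that behaved differently below: Hoxd13, which had the most reads of the 9 in the ESC knock-out, its neighbour Hoxd12, which had the fewest, and Hoxa13, the group 13 member with the smallest change in the NP knock-out. The sequences are from RefSeq on GRCm38.p6, run 5′ to 3′ along the strand of the gene, and cover the 250 bases before the start. Capitals mark CpG, the dinucleotide that is dense in CpG islands, where PRC2 is found in stem cells. The Hoxd13 window is chr2:74667975-74668224 (plus strand), that of Hoxd12 chr2:74674763-74675012 (plus strand) and that of Hoxa13 chr6:52260881-52261130 (minus strand).
Hoxd13: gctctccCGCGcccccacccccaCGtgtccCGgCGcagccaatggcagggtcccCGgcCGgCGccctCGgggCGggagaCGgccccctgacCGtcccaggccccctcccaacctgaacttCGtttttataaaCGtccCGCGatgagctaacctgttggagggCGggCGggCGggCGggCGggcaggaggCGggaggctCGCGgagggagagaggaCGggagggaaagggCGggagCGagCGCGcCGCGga
Hoxd12: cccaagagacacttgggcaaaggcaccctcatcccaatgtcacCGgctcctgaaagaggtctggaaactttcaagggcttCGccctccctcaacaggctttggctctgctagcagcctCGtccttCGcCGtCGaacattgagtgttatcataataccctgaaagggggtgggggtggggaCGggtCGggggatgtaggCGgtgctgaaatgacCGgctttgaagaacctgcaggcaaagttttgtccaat
Hoxa13: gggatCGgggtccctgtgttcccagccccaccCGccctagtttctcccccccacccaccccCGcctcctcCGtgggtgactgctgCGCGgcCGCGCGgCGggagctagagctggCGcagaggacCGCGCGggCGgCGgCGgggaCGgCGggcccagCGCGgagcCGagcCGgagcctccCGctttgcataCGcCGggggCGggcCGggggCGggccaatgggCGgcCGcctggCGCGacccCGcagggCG
Hoxd13 has 31 CpG in this window and Hoxa13 has 35, against a median of 6 in 32817 promoters of the same length in the same table, of which 95.4% and 97.4% have as few or fewer. Hoxd12 has 10. Hoxa11 has 13, and Hoxd11 has 2 at its upstream start and 20 at its downstream start. The motifs TTTATNG, a core bound by Cdx proteins, and AGGTCA, a core motif of nuclear receptors that include those of retinoic acid, were searched on both strands. They occur in 9.81% and 14% of the 32817 windows and in none of the windows of these 5 members. Promoter entries were found for 5 of the 9 members. Hoxb13, Hoxc11, Hoxc12 and Hoxc13 had no entry.

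The files give the authors' statistics per comparison and no value per library, but the reads of each library could be recovered exactly, because each deposited mean is a sum of whole reads divided by size factors that single-read genes reveal. For the 9 members a single solution was found in all 32 libraries, and the 117 deposited means were rebuilt from it with a largest relative error of 4.36e-15. The recovered libraries could not be tied to the replicate numbers of the labels, so within a group they are numbered by size factor, with 1 the deepest, and the numbers are names only. In NP WT, 1 and 2 are the pair of most NP tables, and 3 and 4 are the pair of a separate table, each ordered by size factor. Depth differed by up to 1.48 times among ESC libraries and 1.90 times among NP libraries, and read numbers below are given before scaling. "Scaled reads" are reads divided by the size factor. Neither is per transcript length, so they compare libraries for a gene and do not rank genes by level. A gene was called when its adjusted p in the authors' deposited table was under 0.05.

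Some libraries stood apart, and this touches the results for the rescues. In ESC KO-L the 9 members summed to 679 scaled reads in library 1 and 69.5 in library 2, while the 3 WT libraries had 60.6, 60.6 and 65.8. In ESC KO-S3D the sums were 477 and 87.6. In the 6 ESC tables other than KO, the deepest WT library had no partner in the authors' paired fit, so the effects there rest on the other 2 WT libraries. Suz12 itself gave a partial check of the labels, as log2 fold changes against WT in the authors' deposited tables. The ESC knock-out was at -1.82 ± 0.22 (SE). Libraries labelled KO-L3D were at -1.85 ± 0.28, close to the knock-out, so this check did not set them apart from it. Total Suz12 mRNA does not show whether a construct or the mutation is present, so the check does not settle their label. KO-S3D was at -0.06 ± 0.42. The authors' deposited tables gave the long isoform -1.05 ± 0.28 (adjusted p 0.0143) and the short -0.83 ± 0.27 (adjusted p 0.0345). Both of these unmutated ESC rescues were thus called lower than WT. ESC Deltaex4 was at -1.28 ± 0.40 and was not called. The 6 pluripotency markers tested (such as Pou5f1 and Nanog) had deposited means that summed to between 61004 and 92285 in the ESC tables and between 4336 and 20029 in the NP tables. In NP WT, 5 neural precursor markers (6 were listed) summed to between 3803 and 10932 scaled reads. These are bulk samples, in which fewer cells of a type and less RNA per cell cannot be told apart.

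In wild-type cells the posterior genes had few reads, nearly all of them from group 13. Hoxd13, needed for digits and the external genitalia, had 22, 32 and 20 reads in the 3 ESC WT libraries. Hoxc13, known for its part in hair and nail, had 37, 18 and 31, and Hoxb13, known from prostate and the end of the tail, had 5, 9 and 3. The other 6 members had between 0 and 4 reads in every ESC WT library, and Hoxc11, Hoxd12 and Hoxa13 had none in any of the 3. In NP WT, Hoxb13 led with 123, 89, 77 and 19 reads, followed by Hoxc13 with 34, 16, 31 and 17. Hoxd13 had 25, 8, 3 and 4 and Hoxa13, needed with Hoxd13 for the distal limb and the hindgut, had 8, 7, 4 and 5. Groups 11 and 12 had at most 3 reads in any NP WT library, and Hoxd12 had none in the 4.

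In ESC that lack Suz12 every posterior Hox gene was higher. In the ESC KO, 9 of 9 members were called higher and none lower, where 11% of the 16918 genes with an adjusted p were called higher and 7.27% lower in the same table. The lowest KO library lay above the highest WT library for each of the 9, as it did for 36.9% of 1465 genes with a deposited mean of 10 to 25, the genes for which reads were recovered as a background. Of the members only Hoxc11, Hoxc12, Hoxd12 and Hoxa13 have a mean in that range. The median log2 fold change of the 9 was 4.50 with genes absent from WT at their lower bound, against 0.06 over all genes. As a ratio of mean scaled reads (1 added to each mean) the median log2 value was 4.51, and it stayed between 4.37 and 4.61 when any of the 6 libraries was left out.

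Group 11 and group 12 went from almost no reads to a clear signal. Hoxa11, which patterns the middle of the limb and the uterus, had 122, 132 and 178 reads in the KO libraries and 0, 0 and 4 in WT (log2 fold change 7.93 ± 1.79, adjusted p 1.81e-04 in the authors' deposited table). It shares 568 bp with the antisense gene Hoxa11os, and since no source used here says that strand was used in counting, reads of the pair cannot be told apart. Hoxd11, which acts with Hoxa11 in the forelimb and kidney, had 104, 115 and 131 reads against 1, 2 and 0 (6.85 ± 0.97, adjusted p 1.02e-10 in the authors' deposited table). Hoxc11 had 26, 17 and 28 reads and none in WT, which makes it at least 22.6-fold higher, taking 3 reads over the WT group as the floor. Hoxc12 had 54, 32 and 41 reads against 0, 1 and 2 (5.35 ± 1.13, adjusted p 4.57e-05 in the authors' deposited table). Hoxd12 had 27, 19 and 23 reads and was at least 21.9-fold higher than WT.

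Group 13 started from reads in WT, apart from Hoxa13, and rose as well. Hoxd13 had 447, 370 and 490 reads in the KO libraries, and its log2 fold change was 4.09 ± 0.31 (adjusted p 1.57e-36 in the authors' deposited table), with the smallest error of the 9. Hoxc13 had 360, 239 and 370 reads (3.43 ± 0.39, adjusted p 5.75e-16 in the authors' deposited table). Hoxb13 had 126, 132 and 61 reads (4.13 ± 0.65, adjusted p 8.29e-09 in the authors' deposited table). Hoxa13 had 47, 24 and 34 reads and none in WT, at least 33.4-fold higher. For each of these 4 genes the lowest KO library had more reads than the 3 WT libraries summed.

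Markers of other cell types also moved in the ESC KO. Of 5 mesenchyme markers 3 were called higher (Tbx4, Tbx5 and Twist1) and 0 lower, and the 4 recovered (Col1a1 was not) summed to between 222 and 294 scaled reads in KO against 70.2 to 83.0 in WT. Of 3 mesoderm and tail bud markers with an adjusted p (5 were listed), 2 were called higher, T and Eomes. The reads of Eomes were not recovered in ESC, and the other 4 (T, Tbx6, Mesp1 and Msgn1) summed to between 47.0 and 154 scaled reads against 15.6 to 28.0 in WT. No neural precursor or endoderm marker was called, and of the 6 pluripotency markers Nanog and Klf4 were called higher and none lower. No recovered marker was at 0 in the KO libraries as a group. Their part in the Hox result was not tested.

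**Figure D1:**
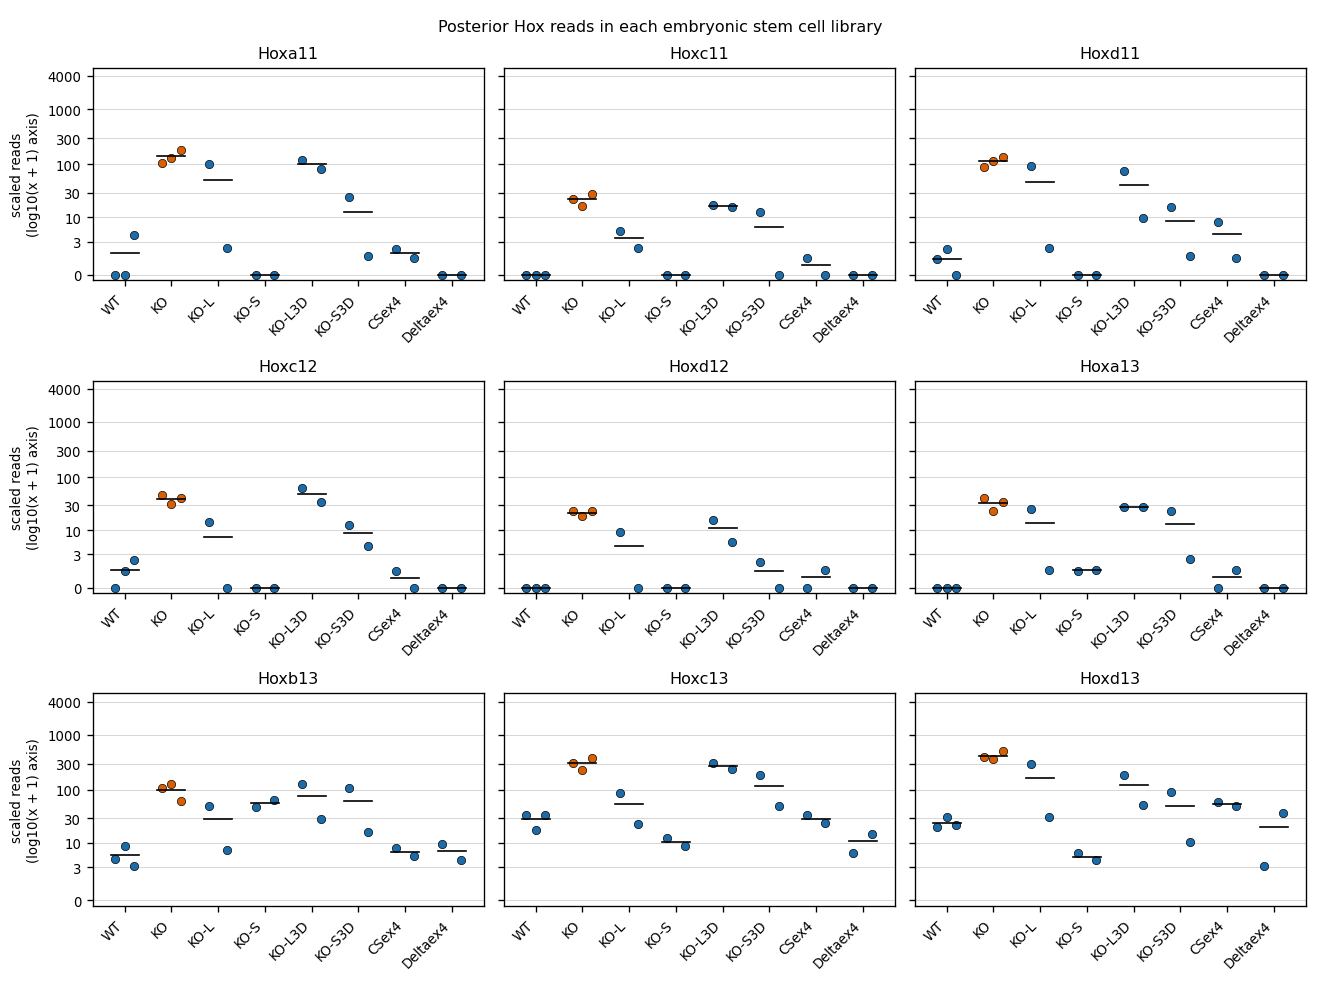
Scaled reads (reads divided by the size factor, log10(x + 1) axis) of the 9 members in each ESC library, with points for libraries and bars for group means. All 3 KO libraries (orange) lie above all WT libraries in each panel, and KO-L and KO-S3D have 1 high and 1 low library for most members.

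The 2 isoform rescues were compared with WT to ask whether each isoform returns these genes to their wild-type level. In ESC KO-S, 8 of the 9 members were at or below WT levels by reads or had no more than 1 read per library, and Hoxb13 was the exception. Hoxd13 had 6 and 4 reads in KO-S against 22, 32 and 20 in WT, and Hoxc13 had 12 and 8 against 37, 18 and 31. Both lay below every WT library, but neither was called (log2 fold change -2.33 ± 1.29, adjusted p 0.311, and -1.24 ± 1.13, adjusted p 0.624, in the authors' deposited table). Hoxa11, Hoxc11, Hoxd11, Hoxc12 and Hoxd12 had no read in either KO-S library, and Hoxa13 had 1 in each. A count of 0 in both libraries allows up to 3 reads, and WT had no more than 4 for these genes, so a fall could not be detected at this depth.

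Hoxb13 stayed high in ESC KO-S. It had 47 and 59 reads there against 5, 9 and 3 in WT, and its log2 fold change of 3.33 ± 1.09 was called (adjusted p 0.0345 in the authors' deposited table), 1 of 3 members with an adjusted p, where 4.28% of genes were called higher and 3.63% lower. The KO-S value lies close to that of KO in the other table, 4.13 ± 0.65 in the authors' deposited table; the WT libraries are shared, and the 2 were not tested against each other. Hoxb13 is the only member of the Hoxb cluster in groups 11 to 13 and lies far from its anterior neighbours. Of 7 listed posterior-end neighbours with an adjusted p in KO-S, 1 was called higher and 0 lower. This was Calcoco2 (2.70 ± 0.45, adjusted p 2.86e-07), which like Ttll6 is listed for the Hoxb cluster. Ttll6 was not called (2.19 ± 0.77, adjusted p 0.0538), both in the authors' deposited table. Sums of the recovered markers of other cell types were also higher in both KO-S libraries. The endoderm markers (Sox17 and Foxa2 of 4) summed to 452 and 544 scaled reads against 4.66, 4.89 and 306 in WT. The neural sum (4 of 6: Sox1, Hes5, Fabp7 and Neurog2, the last at 0 in both groups) was 248 and 355 against 31.7 to 71.3. It leaves out Pax6 and Nes, which went the other way. Their log2 fold changes were -2.51 ± 0.64 (adjusted p 0.00292) and -1.48 ± 1.08 (adjusted p 0.497) in the authors' deposited table. Sox1 was at 2.35 ± 0.52 (adjusted p 3.06e-04) there. Mesenchyme markers (4 of 5) summed to 139 and 167 against 70.2 to 83.0, and mesoderm and tail bud markers (4 of 5) to 56.7 and 37.8 against 15.6 to 28.0. Of these lists, 1 neural marker was called higher (Sox1) and 1 lower (Pax6), 1 mesenchyme marker was called higher, and no endoderm or mesoderm marker was called. Their part in the Hoxb13 value was not tested.

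In ESC KO-L none of the 4 members with an adjusted p was called, where 2.23% of genes with an adjusted p were. The other 5 had none and could not be called, and 2 of the 9 had an unadjusted p under 0.05. The deposited log2 fold changes were above 0 for all 9, with a median of 1.94 when genes absent from WT are set at their bound, but the errors were wide and the 2 KO-L libraries disagreed. Library 1 was high: Hoxd13 had 282 reads, Hoxa11 95, Hoxd11 89, Hoxc13 82, Hoxb13 49 and Hoxa13 25. Library 2 was near WT: the same genes had 30, 2, 2, 22, 7 and 1 reads. For Hoxd13 the authors' deposited table gave 1.94 ± 0.79 (adjusted p 0.259), and for Hoxd11 it gave 4.85 ± 1.64 (adjusted p 0.0988).

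The split between the libraries was seen in most posterior Hox genes and in few genes of low to middle depth. Of the 7 members with at least 10 reads over both KO-L libraries, 6 had over 4 times more scaled reads (1 added) in library 1, with a median log2 difference of 3.72. Among 1420 genes with a deposited mean of 10 to 25, 5.56% did so, and the median log2 difference was 0.11. Of 21 other Hox genes (groups 1 to 10) with enough reads, 10 did so. The median log2 ratio of KO-L to WT over the members, with 1 added to the mean scaled reads, was 2.51 with both libraries, 3.38 with library 1 alone and 0.35 with library 2 alone. Marker sums of other cell types differed less: the mesoderm and tail bud markers summed to 178 scaled reads in library 1 and 189 in library 2 (4 of 5 markers recovered, with Msgn1 at 0 in both), the mesenchyme markers to 220 and 165 (4 of 5), and the neural markers to 56.5 and 38.9 (4 of 6). The endoderm markers summed to 43.9 and 15.8 (2 of 4). The level of Suz12 in each of the 2 libraries was not recovered, so its part in the split was not tested.

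**Figure D2:**
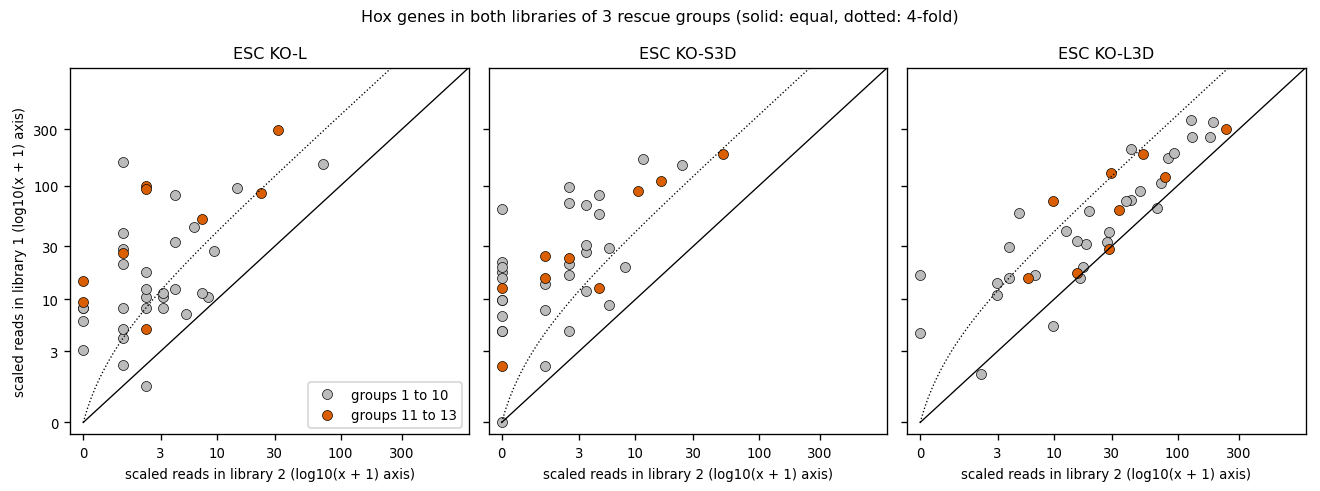
Scaled reads of each Hox gene in library 1 against library 2 of ESC KO-L, KO-S3D and KO-L3D (both axes log10(x + 1)), with posterior members in orange and groups 1 to 10 in grey. Most orange points lie beyond the dotted 4-fold line in KO-L (6 of 7 members with at least 10 reads) and KO-S3D (6 of 8). In KO-L3D all 9 lie on the library 1 side of the solid line of equality, and 2 of 9 lie beyond the dotted line.

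The rescues with the 3D mutation were compared with WT in the same way. In ESC KO-L3D the posterior genes were high in both libraries. Over 4 times more scaled reads (1 added) in library 1 were seen for 2 of 9 members, and for 11.1% of 1453 genes with a deposited mean of 10 to 25. All 9 had every KO-L3D library above every WT library, as had 46.9% of 1499 genes with a deposited mean of 10 to 25. Among members only Hoxd11, Hoxc12 and Hoxa13 are in that range. Of the 7 members with an adjusted p, 5 were called higher (Hoxd11, Hoxc12, Hoxa13, Hoxb13 and Hoxc13), where 8.22% of genes were called higher and 10.1% lower. Hoxc13 had 386 and 246 reads, with a log2 fold change of 3.45 ± 0.61 (adjusted p 7.51e-07 in the authors' deposited table), which stands beside 3.43 ± 0.39 in KO. Hoxa11 had 151 and 82 reads and Hoxa13 had 36 and 29. Hoxd13 had 236 and 55 reads, and its 1.96 ± 0.76 was not called (adjusted p 0.0553 in the authors' deposited table). Hoxc11 was at least 16.6-fold and Hoxd12 at least 11.4-fold higher than WT by reads, although the table gave neither an adjusted p. Suz12 mRNA in these libraries was at the level given above, close to that of the knock-out.

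In ESC KO-S3D none of the 3 members with an adjusted p was called (2 of the 9 had an unadjusted p under 0.05), where 3.23% of genes with an adjusted p were, and the 2 libraries again disagreed. Hoxc13 had 189 and 44 reads (2.02 ± 0.84, adjusted p 0.204 in the authors' deposited table), while Hoxb13 had 110 and 14 (2.91 ± 1.34, adjusted p 0.273 in the authors' deposited table). Hoxd13 had 91 reads in library 1, above all WT libraries, and 9 in library 2, below all of them. Over a 4-fold excess in library 1 was seen in 6 of 8 members, in 20 of 23 other Hox genes and in 13.3% of 1419 genes with a deposited mean of 10 to 25. The median log2 ratio to WT was 2.27 with both libraries and 0.14 with library 2 alone. In this group the endoderm markers also split, with 272 scaled reads in library 1 and 59.6 in library 2 (2 of 4 recovered), while ESC WT ranged from 4.66 to 306. Their part in the result was not tested.

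Direct differences between the ESC rescues (a z test of the 2 deposited values, adjusted over all genes) did not pass for any member. KO-L exceeded KO-S for Hoxd13 by 4.27 ± 1.51 (log2, 95% interval 1.30 to 7.24, unadjusted p 0.00477, adjusted p 0.125), and KO-L3D exceeded KO-L for Hoxc13 by 2.57 ± 1.17 (0.28 to 4.86, adjusted p 0.285). KO-L3D and KO-S3D differed for Hoxc13 by 1.43 ± 1.04 (-0.60 to 3.47, adjusted p 0.99999). These intervals are wide, and they do not show that the isoforms act alike. In the same 3 tests 2.36%, 2.84% and 0.0395% of all genes were called. KO-S3D exceeded KO-S for Hoxc13 by 3.26 ± 1.41 (0.50 to 6.03, unadjusted p 0.0206, adjusted p 0.769), in a test that called 0.44% of genes. The authors' deposited tables supplied both values of each difference, and because they share WT libraries its error is too large rather than too small.

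CSex4 and Deltaex4 address whether fixing or removing the exon moves these genes. In ESC CSex4 only Hoxc13 and Hoxd13 had an adjusted p, and neither was called, where 2.41% of genes were. Of the 9 members 0 had an unadjusted p under 0.05. Hoxd13 had 60 and 48 reads, above all 3 WT libraries, with a log2 fold change of 1.08 ± 0.91 (adjusted p 0.784 in the authors' deposited table). Hoxc13 had 34 and 23 reads, within the WT range. In ESC Deltaex4, the deposited table called no gene at all (0%), 6 members had an adjusted p, and 0 of the 9 had an unadjusted p under 0.05. Hoxc13 had 6 and 14 reads, below every WT library, and Hoxd13 had 3 and 34. The 5 members of groups 11 and 12 and Hoxa13 had no read in either Deltaex4 library. CSex4 exceeded Deltaex4 for Hoxd13 by 2.22 ± 1.65 (95% interval -1.003 to 5.45, adjusted p 0.9999 by the z test), and no member passed, where 0.0502% of genes did.

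In neuronal precursors the posterior genes were also higher in the knock-out. In NP KO against WT, 7 of the 8 members with an adjusted p were called higher and none lower, where 11.6% of genes were called higher and 9.85% lower. Both KO libraries lay above both WT libraries of this table (1 and 2) for all 9, as for 33% of 1443 genes with a deposited mean of 10 to 25. Of the members only Hoxc12 (mean 22.0) is in that range. With genes absent from WT at their bound the median log2 fold change of the 9 was 5.18, against 0.02 over all genes. The second pair of WT libraries, compared with the same KO libraries in another table, gave 7 of 8 members lower in WT, where 17.3% of genes were called lower in WT and 15.6% higher. The exception was Hoxc11.

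Hoxb13 had the most reads of the 9. There were 4259 and 2568 in NP KO against 123 and 89 in WT libraries 1 and 2, a log2 fold change of 5.18 ± 0.38 (adjusted p 1.78e-38 in the authors' deposited table), while against WT libraries 3 and 4 the log2 fold change of WT over KO was -6.78 ± 0.34 (adjusted p 3.27e-83 in the authors' deposited table). Hoxd13 had 1011 and 706 reads against 25 and 8 in WT libraries 1 and 2 (5.998 ± 0.55, adjusted p 2.32e-25 in the authors' deposited table). Against WT libraries 3 and 4, with 3 and 4 reads, WT over KO was -8.34 ± 0.67 (adjusted p 2.46e-33 in the authors' deposited table). Hoxc13 had 294 and 357 reads (3.99 ± 0.57 against WT libraries 1 and 2, adjusted p 1.16e-10 in the authors' deposited table). Hoxa13 had 38 and 50 reads against 8, 7, 4 and 5. The first WT pair gave it 2.75 ± 1.17, which was not called (adjusted p 0.0782), and the second pair was lower than KO by -3.69 ± 1.16, which was (adjusted p 0.00655), both in the authors' deposited tables.

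Groups 11 and 12 also rose in NP KO, apart from Hoxd12, and their fold changes here are against WT libraries 1 and 2. Hoxa11 had 139 and 98 reads against 3, 0, 1 and 1 in WT (6.68 ± 1.24, adjusted p 1.78e-06 in the authors' deposited table). Hoxd11 had 161 and 101 reads against 2, 3, 0 and 1 (5.90 ± 1.00, adjusted p 1.02e-07 in the authors' deposited table). Hoxc11 had 79 and 78 reads against 1, 0, 0 and 0 (7.55 ± 1.67, adjusted p 9.73e-05 in the authors' deposited table). It was not called against WT libraries 3 and 4, which had no read (adjusted p 0.0641 in the authors' deposited table). Hoxc12 had 43 and 39 reads and was at least 31.4-fold above WT libraries 1 and 2, both of which had none. Hoxd12 had only 4 and 1 reads in NP KO, although the same genotype gave 27, 19 and 23 in ESC. Its neighbours on either side had 161 and 101 reads (Hoxd11) and 1011 and 706 reads (Hoxd13) in the same NP KO libraries.

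**Figure D3:**
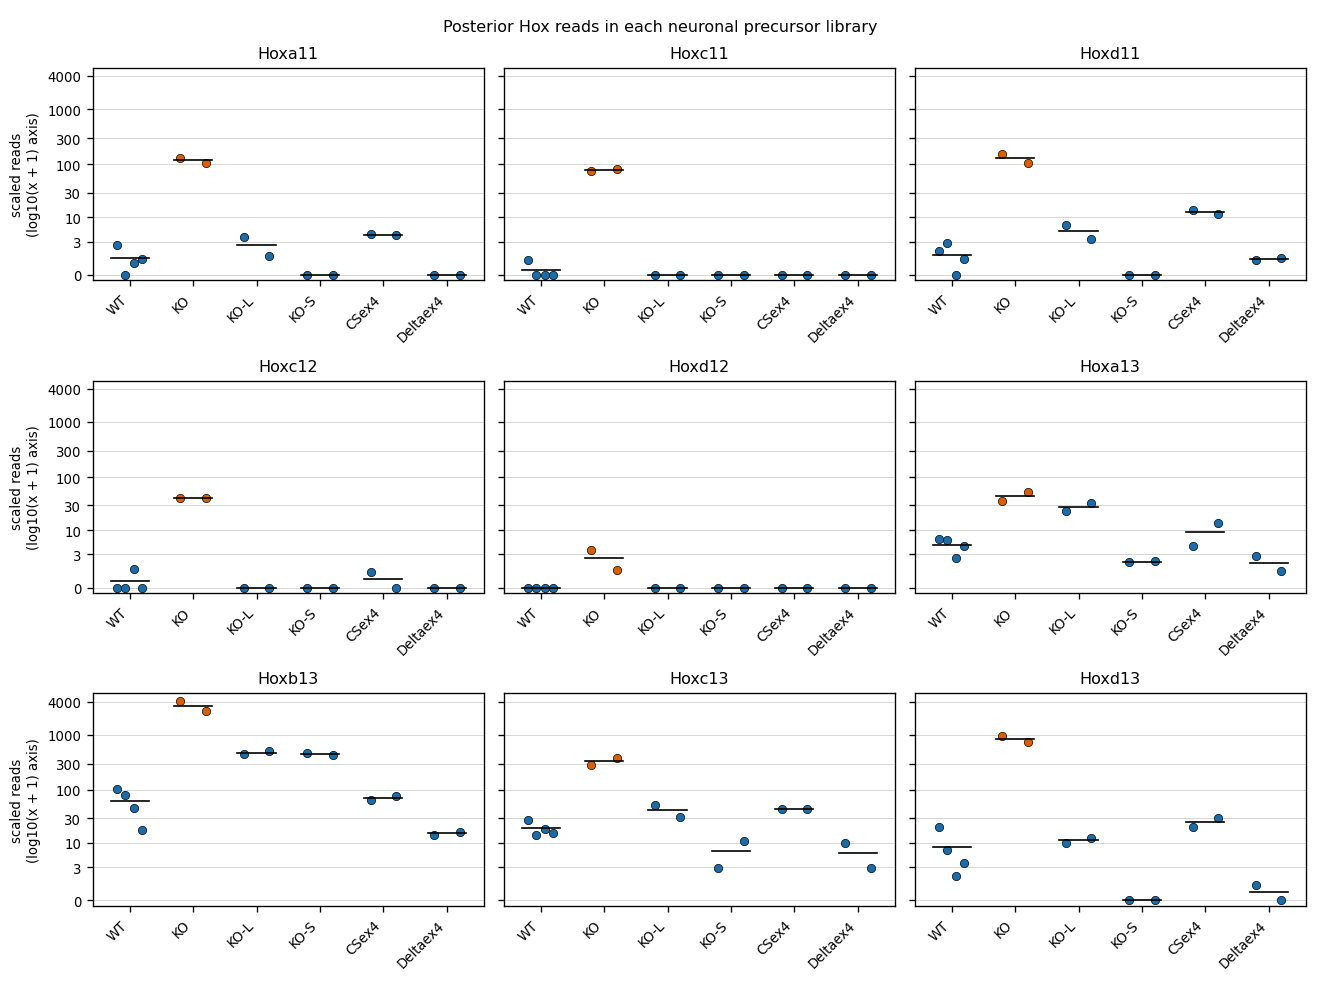
Scaled reads (log10(x + 1) axis) of the 9 members in each NP library, with points for libraries and bars for group means. The KO libraries (orange) are highest in every panel, Hoxb13 stays between 432 and 505 scaled reads in both rescues, and Hoxa13 in KO-L stays near KO.

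The effect of the knock-out on Hoxd13 was larger in NP than in ESC, and that on Hoxb13 passed or missed the test with the choice of NP WT libraries. With WT libraries 1 and 2, the log2 fold change of Hoxd13 in NP exceeded that in ESC by 1.91 ± 0.63 (95% interval 0.67 to 3.14, adjusted p 0.0297 over all genes), where 9.65% of genes were called in the same test. With WT libraries 3 and 4, compared with the same KO libraries, it exceeded it by 4.25 ± 0.74 (2.80 to 5.70, adjusted p 3.48e-07), where 15.5% of genes were called. Hoxb13 differed by 1.05 ± 0.75 with the first pair (adjusted p 0.525) and by 2.64 ± 0.73 with the second (1.21 to 4.07, adjusted p 0.00350). Hoxa13 went the other way, with -4.70 ± 1.87 (adjusted p 0.0944) and -3.77 ± 1.86 (adjusted p 0.179), and did not pass with either pair. Hoxc13 and the members of groups 11 and 12 had intervals that spanned 0 with both pairs.

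In NP KO the direction ran along the paralog groups. Of 20 Hox genes of groups 1 to 7, 17 were called lower and 0 higher, with a median log2 fold change of -2.53. Of 10 genes of groups 8 to 10, 7 were called higher and 2 lower (Hoxb8 and Hoxb9), with a median of 3.74. The 9 members had a median deposited value of 5.90. In ESC KO no group was called lower: 14 of 20 genes of groups 1 to 7 were called higher, 9 of 10 of groups 8 to 10, and all 9 members. Markers of cell types moved with the NP knock-out too. Neural precursor markers (5 of 6 recovered) summed to 598 and 955 scaled reads in KO against 3803 to 10932 in WT, and endoderm markers (3 of 4 recovered) to 4045 and 5933 against 896 to 3157. None of these markers was at 0 in NP KO, and their part in the Hox result was not tested.

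The NP rescues were compared with NP KO. In KO-L, 6 of the 8 members with an adjusted p were called lower than in KO, where 13.8% of genes were called lower and 10.9% higher, and in KO-S 5 of 8 were, where 18% of genes were called lower and 16.4% higher. Every rescue library lay below both KO libraries for all 9 members in both rescues, as for 34.2% of 1401 genes with a deposited mean of 10 to 25 in KO-L and 37.1% of 1399 in KO-S. Among members only Hoxc12 is in that range in KO-L, and only Hoxc12 and Hoxa13 in KO-S. Hoxa11, Hoxc11 and Hoxd11 had no read in KO-S and are at least 81.0-fold, 53.7-fold and 89.6-fold lower than in KO by reads, although their adjusted p in the authors' deposited table were 0.0552, 0.0751 and 0.0514. An adjusted p threshold of 0.1 in place of 0.05 brings the count in KO-S to 8 of 8. The share of all genes called at 0.1 is not given here, so that count has no background.

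Hoxd13 lost nearly all of its reads. It had 10 and 11 reads in NP KO-L and none in KO-S, against 1011 and 706 in KO. The KO-L value was -6.24 ± 0.44 (adjusted p 6.56e-43 in the authors' deposited table), while in KO-S the gene was at least 587-fold lower (adjusted p 0.00918 in the authors' deposited table). Hoxc12 had no read in either rescue, at least 25.6-fold lower in KO-L and 28.0-fold in KO-S. Hoxa11 had 4 and 1 reads in KO-L (-5.57 ± 0.95, adjusted p 6.67e-08 in the authors' deposited table), while Hoxd11 had 7 and 3 (-4.67 ± 0.78, adjusted p 4.25e-08 in the authors' deposited table).

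Hoxb13 fell by a like amount in both rescues and kept more reads than any WT library. It had 454 and 435 reads in KO-L and 494 and 435 in KO-S, where the 4 WT libraries had between 19 and 123. The log2 fold changes against KO were -2.80 ± 0.24 (adjusted p 1.41e-29) and -2.87 ± 0.20 (adjusted p 1.25e-46) in the authors' deposited tables, and they differed by 0.07 ± 0.31 (95% interval -0.53 to 0.68). In scaled reads the rescue libraries lay between 432 and 505, and WT between 17.8 and 102. No deposited table compares the NP rescues with NP WT. Hoxb13 made up most of what remained of the posterior genes: without it, the other 8 members summed to 4.78 and 12.9 scaled reads in KO-S, 96.3 and 81.3 in KO-L, and between 24.99 and 60.7 in WT.

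Hoxc13 differed between the 2 NP rescues, and a difference in Hoxa13 did not pass. Hoxa13 had 24 and 28 reads in KO-L, a log2 fold change of -0.65 ± 0.84 that was not called (adjusted p 0.665 in the authors' deposited table). It had 2 reads in each KO-S library, for which the authors' deposited table gave -4.49 ± 1.23 (adjusted p 0.00143). The difference between the rescues for Hoxa13 was 3.83 ± 1.49 (95% interval 0.91 to 6.75, unadjusted p 0.0101) and did not pass after adjustment (0.109). Hoxc13 had 53 and 27 reads in KO-L and 3 and 11 in KO-S, and here the difference of 2.70 ± 0.75 (1.23 to 4.17) passed (adjusted p 0.00761), as for 7.03% of all genes. For the other 7 members it did not. Mesenchyme markers (5 of 5 recovered) also differed between these groups, with 5914 and 5969 scaled reads in KO-L against 1087 and 1097 in KO-S, beside 773 and 831 in KO, and neural markers summed to 791 and 1040 in KO-L and 4934 and 5153 in KO-S. Their part in the Hox values was not tested.

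**Figure D4:**
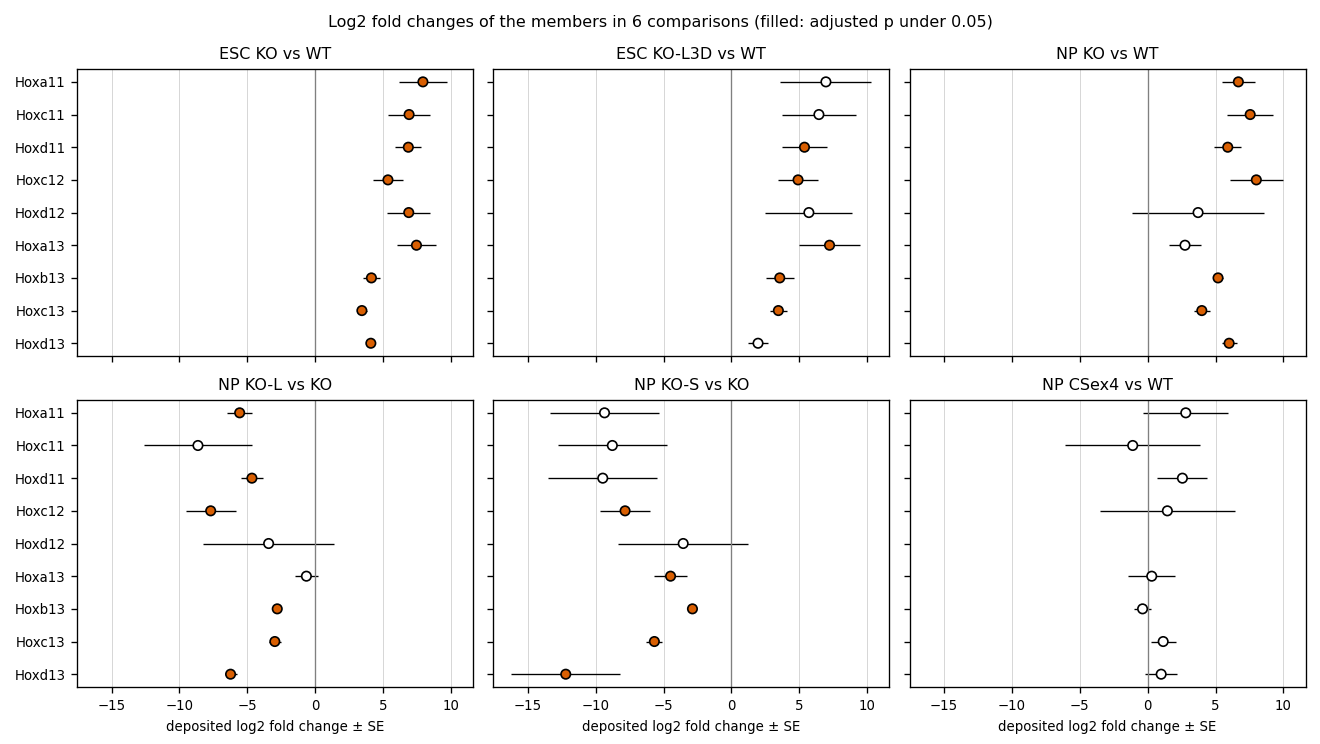
Deposited log2 fold changes with SE for the 9 members in 6 comparisons, filled where the adjusted p was under 0.05 (genes with no reads in a table have no point). All points are right of 0 in the KO and KO-L3D panels and left of 0 in the NP rescue panels, and Hoxa13 lies near 0 in NP KO-L.

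In NP CSex4 none of the 3 members with an adjusted p was called, and 0 of the 9 had an unadjusted p under 0.05, where 5.53% of genes were called. Hoxd11 had 15 and 11 reads against 2 and 3 in WT libraries 1 and 2, and Hoxc13 had 49 and 43 against 34 and 16 (1.14 ± 0.92, adjusted p 0.675 in the authors' deposited table). Anterior genes were called lower in the same libraries: 8 of 20 genes of groups 1 to 7, among them Hoxc5 and Hoxb5, and none of groups 8 to 10. Pluripotency markers (6 of 6 recovered) summed to 30389 and 30881 scaled reads in NP CSex4 and to 8801 and 3563 in WT libraries 1 and 2, and their part was not tested.

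In NP Deltaex4 none of the 4 members with an adjusted p was called, although 2 of the 9 had an unadjusted p under 0.05, in a table that called 0.0809% of genes. The 5 members with over 3 reads in either group (Hoxd11 and group 13) had both libraries below both WT libraries. Hoxd11 (2 reads against 5) and Hoxd13 (1 against 33) had over 3 reads only in WT, so for them the filter itself set the direction. Among 1424 genes with a deposited mean of 10 to 25, 17.6% lay below WT in this way. Of the 5 members only Hoxc13 (mean 15.3) is in that range. The other 4 had at most 3 reads over each group, too few for a direction. Hoxb13 had 16 and 17 reads against 123 and 89 (-2.56 ± 0.86, unadjusted p 0.00304, adjusted p 0.640 in the authors' deposited table). Hoxd13 had 1 and 0 reads against 25 and 8 (-4.90 ± 2.50, adjusted p 0.99996 in the authors' deposited table). WT libraries 3 and 4, which are not in this table, had 77 and 19 reads of Hoxb13 and 3 and 4 of Hoxd13. CSex4 exceeded Deltaex4 for Hoxd13 by 5.90 ± 2.75 (95% interval 0.51 to 11.29, adjusted p 0.501) and for Hoxb13 by 2.18 ± 1.06 (0.10 to 4.26, adjusted p 0.553), and neither passed, where 1.22% of genes did.

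Genes at the posterior ends of the clusters were followed beside the members. Of 9 such neighbours with an adjusted p in ESC KO (12 were measured), 4 were called higher and 1 lower, where 11% of genes were called higher and 7.27% lower. Hoxa11os, the antisense partner of Hoxa11, rose with it (7.66 ± 1.30, adjusted p 1.76e-07 in the authors' deposited table), as did Evx1, a homeobox gene beside Hoxa13 (3.51 ± 0.77, adjusted p 1.17e-04 in the authors' deposited table). The called rises of NP KO were Hoxa11os (5.86 ± 1.30) and Evx2, a homeobox gene beside Hoxd13 (4.96 ± 1.86), in the authors' deposited table. Called lower there were 3 neighbours: Hibadh, Smug1 and Lnpk, which are not homeobox genes. The long noncoding RNAs Hottip and Hotair, which lie in the Hoxa and Hoxc clusters, had no adjusted p in either KO table. Of 8 neighbours with an adjusted p in NP CSex4, 2 were called higher and 0 lower, where 5.53% of genes were called. They were Ttll6 (3.03 ± 0.47) and Calcoco2 (2.50 ± 0.36) in the authors' deposited table, where Hoxb13 was not called.

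Known regulators of the posterior axis did not move as a block. The shares of all genes called in each comparison are those given above. Of 12 measured in ESC KO, 5 were called higher: Cdx1 (4.24 ± 0.39), Cdx2 (1.90 ± 0.59), T (3.48 ± 0.58), Wnt3a (3.96 ± 0.69) and Nkx1-2 (4.28 ± 1.09), all in the authors' deposited table. Cdx1 and Cdx2 are homeodomain activators of posterior Hox genes, and T marks the tail bud. Lin28a (-0.62 ± 0.18) and Lin28b (-1.05 ± 0.20), RNA-binding proteins that keep trunk progenitors, were called lower in the authors' deposited table. Of these regulators 10 had an adjusted p in NP KO. There 1 was called higher, Cdx2 (2.16 ± 0.45), and 3 lower: Nkx1-2 (-2.76 ± 1.02), Lin28a (-1.27 ± 0.46) and Lin28b (-1.31 ± 0.39), in the authors' deposited table. Of 10 regulators with an adjusted p in NP KO-S against KO, 6 were called higher and 2 lower, and Cdx1 and Cdx2 moved apart: Cdx1 was called higher (2.45 ± 0.44, adjusted p 4.18e-07) and Cdx2 lower (-2.17 ± 0.37, adjusted p 5.06e-08) in the authors' deposited table. Of the same list, NP KO-L had 4 called higher and 1 lower, with Cdx1 at 3.90 ± 0.91 (adjusted p 1.57e-04) and Cdx2, not called, at -0.97 ± 0.41 (adjusted p 0.0707) in the authors' deposited table. Of the 9 Hox cofactors (Pbx, Meis and Pknox genes, whose products bind DNA with Hox proteins), 3 were called higher in ESC KO, led by Meis2 (3.21 ± 0.29), and 3 lower in NP KO, led by Pknox2 (-2.36 ± 0.41), in the authors' deposited tables.

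The genes with the most similar pattern were named by Pearson's r with the mean of the 4 group 13 log2 fold changes over the 13 comparisons, which share control libraries. Among 15159 genes compared, the first 5 outside the Hox clusters were Cdkn2a (r = 0.974), Elf4 (0.968), Mpp1 (0.967), Nfatc1 (0.960) and Churc1 (0.954). NP WT, KO-L and KO-S are given over KO, so genes that move with the knock-out also turn sign there, which raises r. The measure takes no account of size. In NP KO the group 13 mean was 4.48, with Elf4 at 2.12, Nfatc1 at 1.97, Mpp1 at 0.81 and Churc1 at 0.62. Cdkn2a, a cell cycle inhibitor and known Polycomb target, had log2 fold changes of 2.88 in ESC KO, 3.70 in NP KO, -2.41 in NP KO-L and -3.51 in NP KO-S in the authors' deposited tables. Hoxc13, a member of group 13 with reads in every group, had 3.43, 3.99, -2.98 and -5.68 in the same tables. In ESC KO-S, Cdkn2a was at 2.15, Hoxb13 at 3.33 and Hoxc13 at -1.24. The mean takes fitted values as deposited, also for Hoxa13 and Hoxd13 in comparisons where a group had no reads. With those values at their bound, or left out where both groups had at most 3 reads, the same 5 genes came first, with r between 0.956 and 0.972. Among Hox genes, likeness mostly fell towards the front of the clusters, from Hoxd9 (0.979), Hoxc10 (0.964) and Hoxa10 (0.947) to Hoxa5 (0.01) and Hoxa3 (-0.39). The order was not strict. Hoxb9 was at 0.08, and Hoxd1 (0.50) lay above Hoxa7 (0.44), Hoxb7 (0.32) and Hoxc6 (0.16).

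The ChIP-seq of the series entered as 2 lists of regions from ESC, 6882 for H3K27me3 and 2865 for Suz12, found with DiffBind by the submitters. The headers name neither the groups compared nor the direction, so a region is read only as a place that the authors listed. All 9 members lay wholly inside a region of each list, where 20.3% of 21900 protein-coding genes overlapped an H3K27me3 region and 11.3% a Suz12 region. Genes are placed by RefSeq on GRCm38.p6, the assembly that mm10, named in the submitters' processing notes, is drawn from.

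The Hoxa members shared the widest of the H3K27me3 regions. Hoxa13 (chr6:52258853-52260880) and Hoxa11 (chr6:52242105-52245810) lie in the region chr6:52159116-52278545, which spans 119430 bp and runs on towards the anterior genes. Hoxd13 (chr2:74668225-74671603), Hoxd12 (chr2:74675013-74677705) and Hoxd11 (chr2:74679558-74687016) lie in the second widest, chr2:74646053-74715984, of 69932 bp. The Suz12 list divides this stretch between Hoxd13, in a region of 19093 bp, and Hoxd12 with Hoxd11, in the next, of 42108 bp. Hoxc11 (chr15:102954526-102956701) lies in the widest Suz12 region of all, of 69311 bp. It shares an H3K27me3 region of 34214 bp with Hoxc12 (chr15:102936826-102938609), and by the deposited value that region ranks at place 2 of the list. Hoxc13 (chr15:102921131-102928814) has an H3K27me3 region of its own, of 10849 bp.

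Hoxb13 lies in regions of its own. Its H3K27me3 region, chr11:96166232-96198846, spans 32615 bp and holds no other member, and most of it lies before the start of the gene (chr11:96194316-96196610). Its Suz12 region, of 7893 bp, is the narrowest of the 9 and ranks lowest by the deposited value, at place 1061 of 2865, where those of the other members rank between 28 and 402. These ranks are a description of the list, and no test ties them to the reads.

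**Figure D5:**
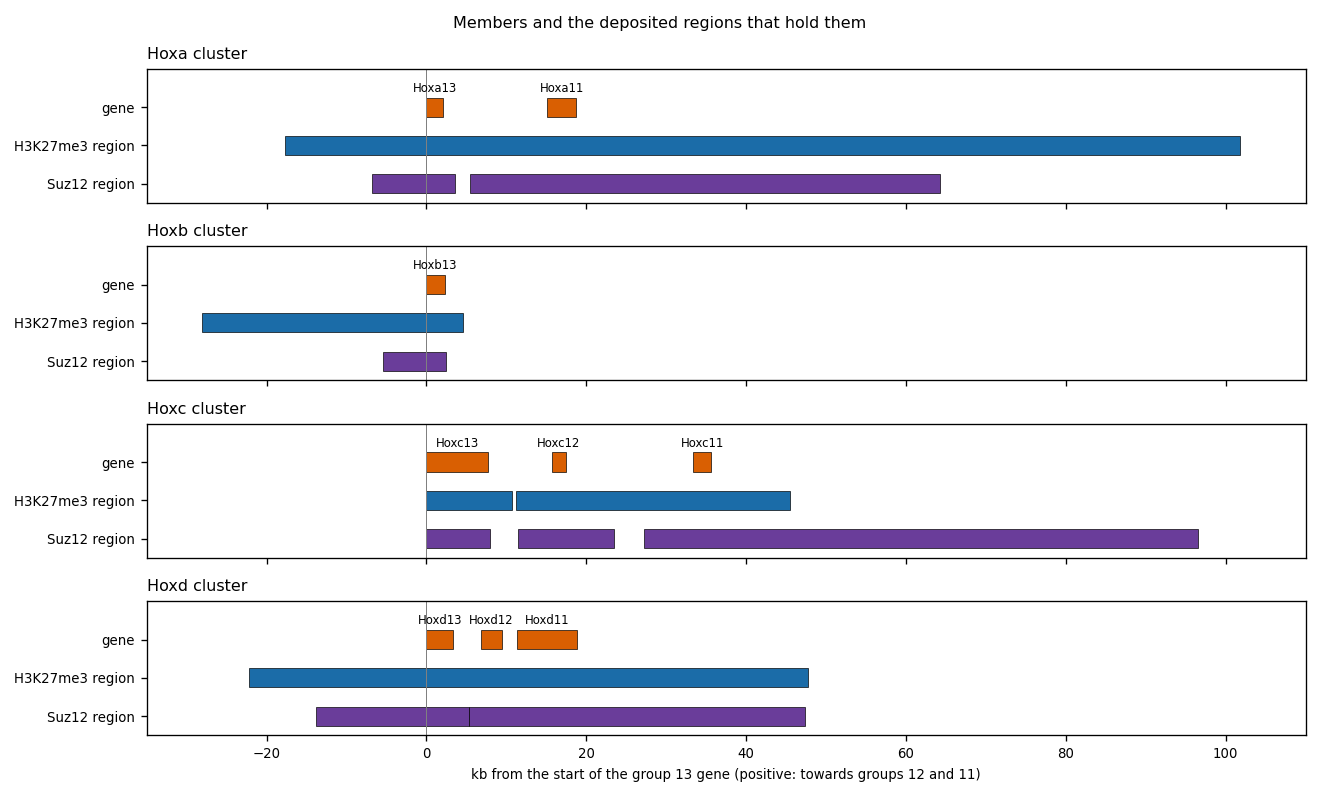
The members (orange) and the deposited H3K27me3 (blue) and Suz12 (purple) regions that hold them, in kb from the start of the group 13 gene of each cluster. Each gene lies inside a bar of both kinds, and the bars of the Hoxa cluster are the widest for H3K27me3.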

How the data were processed

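RNA-seq (32 samples) enters here as 13 deposited tables of comparisons. Of the 55 ChIP-seq samples, those for H3K27me3 (18) and Suz12 (7) are represented by 1 deposited list of regions each, which names no samples, and ChIP-seq of other proteins is not used here. Bowtie, TopHat, DESeq2 and DiffBind, with no versions, and the builds mm10 and dm3 are named in the submitters' processing notes. Per the file headers, the columns are those of DESeq2: a deposited mean (signal: reads divided by size factors), a log2 fold change with its SE, the test statistic (a score) and a p-value with its adjusted value, all computed by the authors. The value of each region is the authors' and its kind is not given in the headers. The plan allowed for count tables, but the tables used here hold statistics, so no count test was refitted and the deposited statistics are used as they stand.

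Groups came from sample titles. Reads per library were recovered from the 15 digits of each deposited mean, from 60 library places that proved to be 32 libraries. Whether a library belongs to the first or second group of a table follows from the sign of the deposited fold change of genes whose only read is in that library, or from another table that shares the library. Places taken as the same library had equal reads in 100% of the genes compared, and no other pair in more than 18.1%. The deposited means summed to between 26085140 and 31499803 per table, which is the mean depth in scaled reads. Reads without molecular identifiers are not independent molecules, so floors (3 reads over a group) cover counting error only. Differences between comparisons were tested as z values with Benjamini-Hochberg adjustment over all genes. The read recovery and the difference test were tested on simulated data. Python 3.11.15, numpy 2.4.6, pandas 2.3.3 and scipy 1.17.1 were used.

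The named genes are the 9 members, 30 other Hox genes, 14 posterior-end neighbours (12 measured), 13 posterior axis regulators (12 measured), 9 Hox cofactors, 5 marker lists and the 5 genes outside the Hox clusters most like group 13 among genes with a deposited mean of at least 10 in at least 7 tables. From each list at most the 4 called genes with the largest log2 fold change are named by rule, and further list genes, named where a count of 5 or fewer is spelled out, were chosen after their values were seen. Members and lists were chosen with earlier results of these data known. The alternatives were thresholds of 0.01 and 0.1, other sets of genes for the adjustment, centring on the table median, and leaving out each library. The difference between NP and ESC with the second NP WT pair, and the likeness with bounds, were added after seeing the data.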

Additional observations from a re-analysis of the deposited data

Results flagged for a closer look

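The log2 fold change of KO over WT for Hoxd13 was larger in NP than in ESC by 1.91 (adjusted p 0.0297 by the z test over all genes), and by 4.25 with the other pair of NP WT libraries, with both NP KO libraries and all 3 ESC KO libraries above their WT libraries. Over the 4 NP WT libraries, the highest library of Hoxc11 stood apart at 0.831 scaled reads with the other 3 at 0, which is 1 read. The highest library of Hoxc12 stood apart in the same way at 1.22 scaled reads, which is 2 reads. How often chance sets a library apart by this rule was not measured at such counts, and 1 or 2 reads lie within the floor of 3.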

How the results depend on the processing

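Of 359 values of single members under other thresholds, adjustments and centring, 348 kept their direction and their side of the threshold, 4 were no longer called, 7 became called and 0 changed direction. A threshold of 0.01 took the count of members called from 1 to 0 in ESC KO-S and from 5 to 2 in ESC KO-L3D. A threshold of 0.1 took it from 0 to 1 in ESC KO-L and from 5 to 8 in NP KO-S. Shares of all genes called at 0.01 and 0.1 are not given beside these counts. Other adjustments and centring changed no count of members by more than 1.5 times. The median log2 ratio of mean scaled reads over the members, when each library was left out in turn, ranged from 0.35 to 3.38 in ESC KO-L (2.51 with all), from 3.02 to 4.29 in KO-L3D (4.13), from 0.14 to 3.10 in KO-S3D (2.27), from -0.98 to 0 in KO-S (-0.97), from 0 to 0.62 in CSex4 (0.58) and from -0.97 to 0 in Deltaex4 (-0.27). For NP it ranged from 5.08 to 5.44 in KO vs WT (5.35), from -6.22 to -5.88 in WT vs KO (-6.06), from -4.86 to -4.05 in KO-L (-4.40), from -6.31 to -5.38 in KO-S (-5.39), from 0.40 to 0.96 in CSex4 (0.55) and from -1.43 to -0.94 in Deltaex4 (-1.17). As alternatives chosen after seeing the data, library 2 alone gave 0.35 in KO-L, 3.02 in KO-L3D and 0.14 in KO-S3D. In KO-S the value is 0 without WT library 3, and in CSex4 it is 0 without CSex4 library 1; the cause was not tested. Regions within 2500 bp of the start were counted for the 5 members whose start is listed and were found for 5 of 5. The planned edgeR and DESeq2 fits were not run because a fit needs the reads of all genes, and reads were sought only for the members, the listed genes and genes of low to middle mean. With the second pair of NP WT libraries, chosen after seeing the data, 2 members in place of 1 differed between NP and ESC. All calls rest on the authors' own fits, which their names give as paired. No paired analysis was possible because, for a further fit with and without the block, the recovered libraries carry no replicate numbers.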
